A study of Anopheles gambiae with 104 samples.

Results

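In the heads of female malaria mosquitoes, 45 probe sets followed the light:dark cycle with a small but closely timed daily rhythm. They were chosen from 16884 Anopheles gambiae probe sets by their values in heads in the light cycle. A 24 h cosine curve was fitted to the means of the 2 arrays per time point. A member needed a fitted amplitude (peak minus mean) of 0.25 to under 0.5 on the log2 scale, an R2 (share of the variance between time points that the curve takes up) of at least 0.9, and a mean level of at least 4. Its level in heads and bodies had to differ by less than 5 in the light cycle, and it could not be strongly rhythmic (amplitude of at least 0.5, R2 of at least 0.7 and mean level of at least 4) in any of the other 3 arms. The amplitude, R2, level and peak hour in heads in the light cycle are therefore descriptions here, with no test.

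The arrays measured RNA of mated females of the Pimperena strain (S form) that had not fed on blood and were 7 to 9 days old at the start. The 4 arms were heads in constant dark (DD), heads under daily light (LD, where 11 h of full light lay between a dawn and a dusk of 1 h each), bodies in DD and bodies in LD, with heads and bodies taken from the same pools of 20 to 30 mosquitoes and heads including mouthparts and antennae. Each arm held 13 time points 4 h apart with 2 arrays each, which makes 26 arrays an arm and 104 in all. DD was sampled from subjective dawn, circadian time (CT) 0, until CT48, and LD from lights off, zeitgeber time (ZT) 12, until ZT60. Hours of day below are counted from ZT0 or CT0. Nothing in the labels ties the 2 arrays of each collection to separate pools. P-values thus cover the spread among these collections alone, and part of that spread may be technical.

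Circadian rhythms are run by a cell-autonomous clock. In insects, as worked out mainly in Drosophila, the factors CLOCK and CYCLE switch on the genes period and timeless, whose proteins later return to the nucleus and shut that activity off, and light resets the loop through cryptochrome. In the head, clock cells lie in the brain, and the eyes and antennae hold clocks of their own. Anopheles gambiae females fly, seek hosts and feed at night. A rhythm that follows the light cycle can come from this clock or from light itself, and constant dark removes the light cue.

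No file gives the gene behind a probe set, and 0 of the probe set names matched an identifier among 15165 genes of the reference assembly idAnoGambNW_F1_1. No gene, pathway or tissue marker could therefore be assigned, the labelled tissues could not be checked against their markers, and members are given by their IDs. The first parts of an ID are a chromosome arm and the number of a cluster of transcripts. CDS or UTR in it names the part of the transcript model probed, and the endings _a_at and _s_at mark probes shared by transcripts of 1 gene or of several genes.

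The RNA itself differed between regimes. The log2 difference between 3′ and 5′ control probe sets of Gapdh, which grows as RNA is degraded or less fully copied, averaged 4.40 ± 0.97 in heads DD and 2.59 ± 0.20 in heads LD, and 4.34 ± 0.58 in bodies DD and 3.04 ± 0.46 in bodies LD (SD, n = 13 time points each). In bodies DD it was highest at CT48, at 5.46, against 4.83 at the next highest time point, and no level fit left CT48 out. In heads DD it was highest at CT44, at 7.54, against 4.51 at the next highest time point. Without CT44 the counts given below were 18 rhythmic members in heads DD, 23 higher and 11 lower in level in heads DD than in heads LD, 18 and 19 for the interaction with tissue, and 13 and 27 for heads DD against bodies DD. The actin probe sets differed the same way, with 3.29 ± 0.63 in heads DD and 2.25 ± 0.21 in heads LD, and 2.72 ± 0.36 in bodies DD and 2.09 ± 0.20 in bodies LD. These values move with every DD and LD comparison below, and their part in the results cannot be told apart from that of the regime.

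In heads LD the members' amplitudes lay between 0.27 and 0.49, with a median of 0.38. The fitted peak was 1.46 to 1.98 times the fitted trough, with a median of 1.70 times. Their R2 reached 0.967, with a median of 0.924. The time points scattered around the members' curves with a median SD of 0.09, against 0.19 for 1103 probe sets that met every other limit but had an R2 under 0.9, and 0.24 for 264 probe sets that were strongly rhythmic in heads LD alone. The 2 arrays of a time point also lay closer together, with a median SD of 0.13 for members, against 0.21 for the less precise probe sets of the same amplitude and 0.22 for the strongly rhythmic ones. Since R2 chose the members, this small scatter is part of how they were found.

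The members were bright. Their mean level in heads LD had a median of 9.28 and a range of 4.77 to 12.73, against a median of 6.73 over all 6849 Anopheles probe sets with a mean of at least 4. The dimmest, Ag.X.1146.0_at, singled out after its values were seen, stood apart from the next at 6.23. Among the 2017 probe sets with a mean of 8 or more, whose median level was 9.32, the median scatter of arrays was 0.12, close to that of the members.

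**Figure D1:**
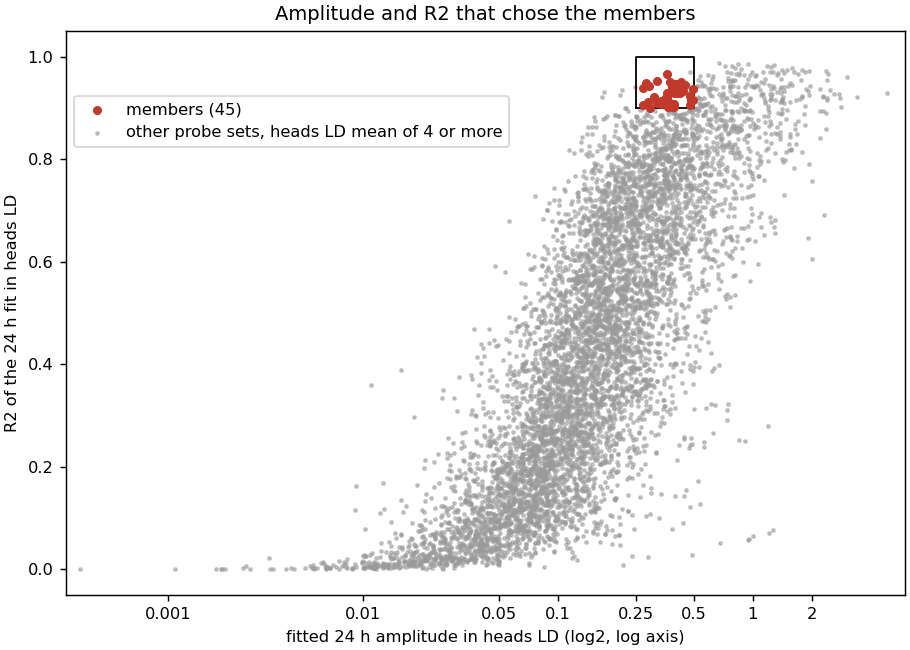
Fitted 24 h amplitude (log2 units, log axis) against the R2 of the fit in heads LD, 1 point per Anopheles probe set with a mean of at least 4 (6849 points). The 45 members are red and lie inside the outlined limits, with R2 up to 0.967; grey points inside the outline failed another limit.

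The limits cut through a continuous cloud of points. The lowest member amplitude was 0.273 and the nearest probe set left out by that limit alone had 0.249. At the upper limit the values were 0.4931 inside and 0.5002 outside. For R2 they were 0.9008 inside and 0.8999 outside, and 1103 probe sets missed by that limit alone, against 68 by the upper amplitude limit and 5 by the lower. The minimum level left out 2 probe sets, strong rhythm in another arm 2, and the cap on the difference between heads and bodies 1.

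More members peaked in the early morning than in any other 4 h of the day. By hour of day, 6 of 45 peaked from 22 to under 2, 18 from 2 to under 6, 3 from 6 to under 10, 4 from 10 to under 14, 4 from 14 to under 18 and 10 from 18 to under 22. The hours from 2 to 6 thus held 40.0% of the members, against 15.1% of the less precise probe sets of the same amplitude, 15.9% of the strongly rhythmic ones and 14.9% of all with a mean of at least 4. Among 508 probe sets of the same amplitude with R2 from 0.7 to under 0.9 the share was 17.5%, and among bright probe sets with a mean of 8 or more it was 15.8%. In all, 34 members peaked in the 12 h from hour 18 to 6 and 11 in the 12 h from hour 6 to 18. Within the first of these windows, hours 18 to 22 held 22.2% of members, against 21.3% of all with a mean of at least 4. Hours 22 to 2 held 13.3% of members, against 20.2% of all, so part of this split was general.

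Each replicate alone gave nearly the same timing. The peak hours from the 2 replicates differed by a median of 0.373 h, by under 1 h in 37 members and under 2 h in 44, and by at most 2.16 h. An amplitude inside the limits came from both replicates in 40 members. R2 of at least 0.9 was reached by both replicates alone in 9 members and R2 of at least 0.7 in 44, so the stricter limit needed the averaged arrays for most of them. Over the second 24 h of LD the members' median amplitude was 0.38, against 0.37 over the first 24 h, and the peak hours of the 2 days lay within 4 h in all 45. The rule chose members by these same arrays and days through the R2 of their means. Close timing between replicates and between days therefore follows largely from the rule and tests nothing.

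Of the members peaking between hours 18 and 6, Ag.2R.387.0_CDS_a_at had the highest R2. Its time point means ran from 9.21 over a median of 9.44 to 9.97 in heads LD. The arrays read 9.89 and 9.91 at ZT16 and 9.88 and 10.06 at ZT44, against 9.07 and 9.35 at ZT32 and 9.09 and 9.41 at ZT56. These 4 night arrays lay above the 4 late day arrays. The hours shown for the named members in heads LD lie near their fitted peaks and troughs, so such gaps follow from the rule and test nothing. The fitted peak of Ag.2R.387.0_CDS_a_at fell at hour 19.3 with an amplitude of 0.36 ± 0.02 (SE, n = 13 time points). In heads DD the same probe set ran from 9.62 over 9.87 to 10.15, and its amplitude there was 0.07 ± 0.07.

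The next, Ag.2R.1152.0_CDS_at, peaked at hour 4.53 in heads LD. It read 7.66 and 8.08 at ZT28 and 7.70 and 7.97 at ZT52, against 7.11 and 7.43 at ZT40 and 7.12 and 7.52 at ZT44. The arrays of both mornings lay above those of the night between them, and replicate 2 was the higher array at 12 of 13 time points.

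Of the members peaking between hours 6 and 18, Ag.2R.330.0_CDS_at read 9.52 and 9.60 at ZT36 and 9.49 and 9.53 at ZT56 in heads LD, against 8.96 and 9.13 at ZT24 and 8.91 and 9.01 at ZT44. These arrays of dusk and late day lay above those of dawn and late night, with a fitted peak at hour 10.4 and an amplitude of 0.28 ± 0.02.

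The brightest member, Ag.3R.321.0_CDS_a_at, read 13.13 and 13.07 at ZT32 and 13.13 and 13.10 at ZT56 in heads LD, against 12.20 and 12.29 at ZT20 and 12.54 and 12.30 at ZT44. It was high by day and low by night on both days, with a fitted peak at hour 8.63 and an amplitude of 0.40 ± 0.03.

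**Figure D2:**
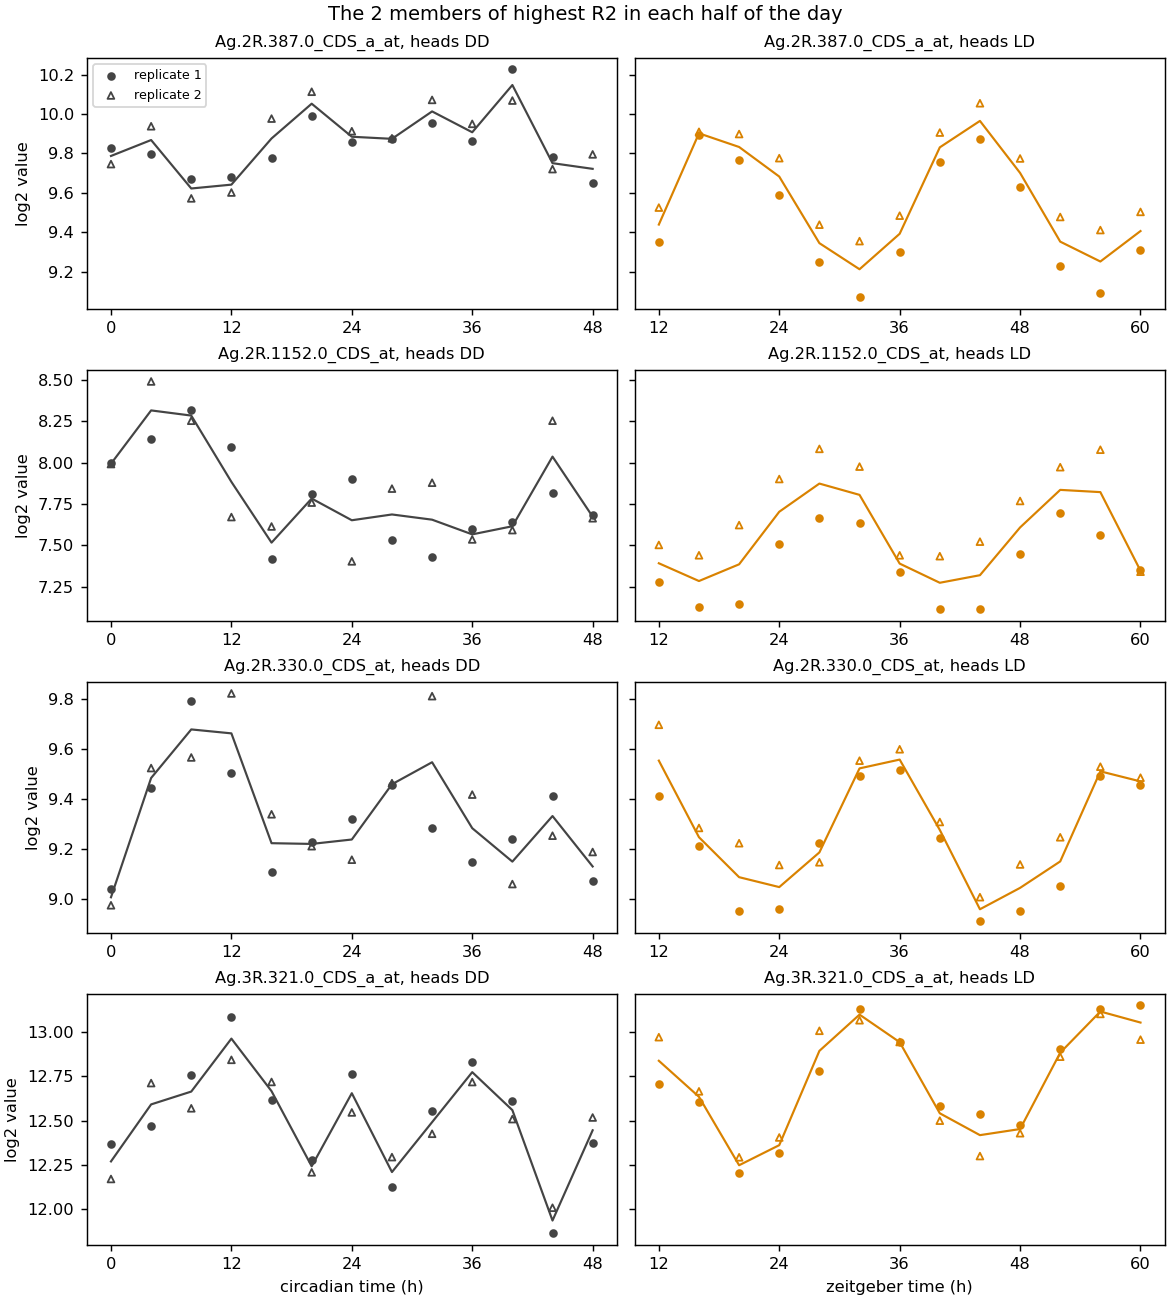
Log2 values of 4 members in heads by hour of collection, heads DD on the left and heads LD on the right, with filled circles for replicate 1, open triangles for replicate 2 and a line through their means. The curves repeat over both days in LD, while the profile of Ag.2R.387.0_CDS_a_at in DD has a fitted amplitude of 0.07.

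In constant dark the members' rhythms in heads were smaller but kept much of their timing. The amplitude in heads DD had a median of 0.23 and a range of 0.04 to 0.49, against a median of 0.38 in heads LD, and was below the LD amplitude in 43 of 45 members. The exceptions, Ag.3L.817.0_CDS_a_at and Ag.3L.881.0_CDS_at, were picked out after their values were seen. The median ratio of DD to LD amplitude was 0.594 in members. It was 0.648 in the less precise probe sets of the same amplitude and 0.478 in the strongly rhythmic ones. Over all with a mean of at least 4 it was 0.944. Because the members were chosen by their LD amplitude and capped in DD, the lower amplitude in DD is a description.

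By limma's F-test over the 13 time point means, 16 of 45 members (35.6%) were rhythmic in heads DD at an adjusted p under 0.05, against 8.92% of the 7188 Anopheles probe sets tested in heads. All 45 passed the filter on low values in both tissues. The limit on strong rhythms in heads DD was part of the rule, so nothing is read from this share. The amplitudes of the 16 ran from 0.23 to 0.49 with a median of 0.30, and 12 of them peaked from hour 18 to 6 and 4 from hour 6 to 18. At an unadjusted p under 0.05 there were 32 members, among 1765 of the 7188 probe sets. The count of called members was 7 without replicate 1, 8 without replicate 2, 18 without CT44 and 31 when the arrays were fitted one by one. Shares over all probe sets under these alternatives are not given here, so the counts show only how far the call moved. On ranks over the 13 time points 0 members and 0 of all 7188 probe sets were called, and the smallest adjusted p of a named member was 0.0884.

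The largest rhythm in heads DD was that of Ag.3L.817.0_CDS_a_at, with an amplitude of 0.49 ± 0.05 (SE, n = 13 time points, limma adjusted p = 0.000524). Its arrays read 9.74 and 9.96 at CT4 and 9.64 and 9.60 at CT28, against 8.88 and 8.70 at CT12 and 8.81 and 8.82 at CT36. Arrays of the subjective morning lay above those of subjective dusk on both days. This member was named by its F in heads DD, and the hours shown lie near its fitted peak and trough. The gap between these arrays therefore follows from that choice and tests nothing further. Ag.3L.817.0_CDS_a_at peaked at hour 3.12 in heads DD and at hour 5.05 in heads LD.

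Ag.2L.624.0_CDS_at had an amplitude of 0.34 ± 0.06 in heads DD (limma adjusted p = 0.00602) and peaked at hour 2.06, against hour 2.33 in heads LD. It read 8.02 and 8.40 at CT4 and 8.03 and 8.21 at CT24, against 7.14 and 7.38 at CT12 and 7.37 and 7.36 at CT40. It was high around subjective dawn on both days, and its adjusted p was 0.223 without replicate 1. Its hours shown were likewise near the fitted peak and trough, so the gap between these arrays follows from the choice and tests nothing further.

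Among members with a later peak, Ag.X.16.0_CDS_a_at had an amplitude of 0.34 ± 0.06 in heads DD (limma adjusted p = 0.0057), peaking at hour 15.1. Ag.2R.472.0_UTR_a_at had 0.28 ± 0.05 (limma adjusted p = 0.00919), peaking at hour 9.58. Without replicate 2 their adjusted p were 0.0578 and 0.0521.

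Peak hours in heads DD came a median of 1.09 h before those in heads LD. The median difference, DD minus LD, was -0.48 h in the less precise probe sets of the same amplitude and -0.85 h in the strongly rhythmic ones. Over all with a mean of at least 4 it was -0.26 h, so earlier peaks in DD were not particular to the members. The peak was earlier in DD in 34 members and later in 11, lay within 2 h of the LD peak in 29 and within 4 h in 42. That is 93.3% of members within 4 h, against 76.9% of the less precise probe sets of the same amplitude, 88.3% of the strongly rhythmic ones and 60.0% of all with a mean of at least 4. All 16 members called rhythmic in heads DD lay within 4 h, between 3.48 h earlier (a difference of -3.48) and 2.10 h later, and 14 of them were earlier. The difference was over 6 h in 1 member, Ag.2R.335.0_CDS_at, named after its value was seen, whose amplitude of 0.04 ± 0.06 in heads DD leaves its peak hour there undefined.

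The shift differed in size by hour of peak. Members peaking from 2 to 6 in heads LD had a median difference, DD minus LD, of -1.80 h, and those peaking from 22 to 2 had -1.58 h. The medians were -0.46 h for the hours 10 to 14, -0.89 h for 14 to 18 and -0.63 h for 18 to 22. The 3 members peaking from 6 to 10 had differences of -0.89, 2.08 and 3.39 h, with a median of 2.08 h. None of these was called rhythmic in heads DD (limma adjusted p of 0.178 to 0.464), so their hours there are loosely set. These are descriptions of small groups, and no difference between them was tested.

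**Figure D3:**
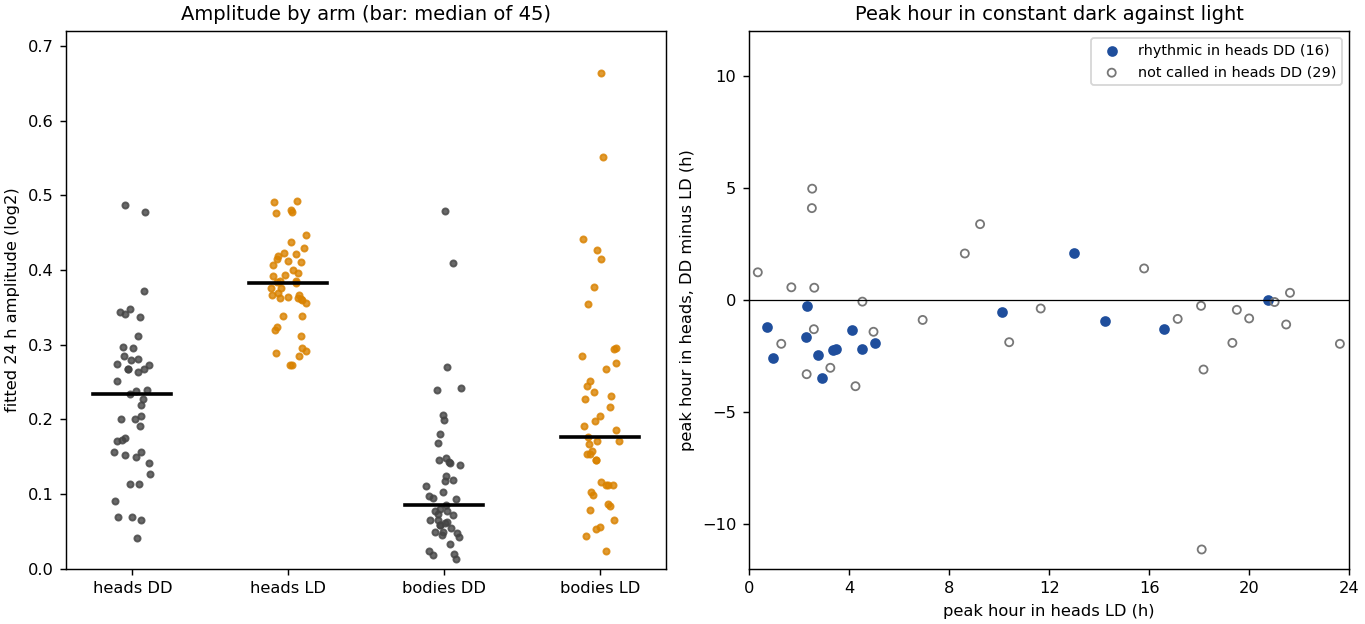
Left, fitted 24 h amplitude (log2) of each of the 45 members by arm, with a bar at the median, which was 0.23 in heads DD, 0.38 in heads LD, 0.09 in bodies DD and 0.18 in bodies LD. Right, difference in peak hour in heads, DD minus LD, against the peak hour in heads LD, with the 16 members called rhythmic in heads DD filled; 34 of 45 points lie below 0, and the point near -11 h is Ag.2R.335.0_CDS_at.

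The second day in the dark did not differ detectably from the first in level. Second minus first day, the members' differences in heads DD ran from -0.29 to 0.19 with a median of -0.05 and a median SE of 0.09, against a median of -0.09 over all 7188 probe sets. The second day was lower in 33 members and higher in 12. By limma with hour of day as a block, 0 of 45 members were called at an adjusted p under 0.05, against 0% of all probe sets. At an unadjusted p under 0.05 there was 1 member among 1231 probe sets, and with arrays one by one 0 members were called. The amplitude over the second 24 h of heads DD had a median of 0.25, against 0.27 over the first, and was lower in 27 members. Peak hours of the 2 days lay within 4 h in 36.

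In bodies under the light cycle most members had smaller fitted amplitudes, with fitted peaks at hours close to those in heads. The members' amplitude was larger in heads LD (median 0.38) than in bodies LD (median 0.18) in 41 of 45, which follows in part from choosing them by a heads LD amplitude and capping it in bodies. The less precise probe sets of the same amplitude had the same median of 0.18 in bodies LD. Peaks in bodies LD came a median of 0.32 h after those in heads LD and lay within 4 h of them in 39. The median SE of the amplitude in bodies LD was 0.06 and 31 members were not called there, so most of these hours are loosely set. The share of other probe sets within 4 h is not given here, so nothing particular to the members is read from it. By limma's F-test, 14 members (31.1%) were rhythmic in bodies LD at an adjusted p under 0.05, against 16.0% of the 7325 probe sets tested in bodies. Strong rhythms in bodies were limited by the rule as well, so nothing is read from that share. The amplitudes of the 14 ran from 0.19 to 0.66, and all 14 peaked within 4 h of their hour in heads LD. Without ZT16 the count was 9, without replicate 2 it was 8, and with arrays one by one it was 28. The 2 arrays of bodies LD lay furthest apart at ZT52, where their differences had an SD of 0.44 over the members, against 0.28 at ZT16, the next. The 3′ minus 5′ differences of Gapdh and actin in bodies LD were also highest at ZT52, at 3.86 and 2.52, against 3.81 and 2.32 next.

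The 2 called members of highest F with a peak from hour 18 to 6 were Ag.2R.539.0_UTR_at, with an amplitude of 0.38 ± 0.05 in bodies LD peaking at hour 4.35 (limma adjusted p = 0.000952), and Ag.3R.3668.0_at, with 0.43 ± 0.06 peaking at hour 4.14 (adjusted p = 0.00213). Ag.3R.3668.0_at was nearly as strong in bodies LD as in heads LD, where its amplitude was 0.44. In the other 12 h, Ag.2R.330.0_CDS_at had 0.35 ± 0.06 peaking at hour 11.8 (adjusted p = 0.00501) and Ag.2L.192.0_UTR_a_at had 0.28 ± 0.06 peaking at hour 13.5 (adjusted p = 0.0173). Errors are SE over 13 time points.

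In bodies DD the members' rhythms were smaller still. The amplitude was larger in heads DD (median 0.23) than in bodies DD (median 0.09) in 38 members. The choice by a heads LD amplitude and the limit on strong rhythms in both DD arms bear on this contrast. The less precise probe sets of the same amplitude had medians of 0.22 in heads DD and 0.14 in bodies DD. In bodies DD 30 members peaked within 4 h of their hour in heads LD. The median SE of the amplitude there was 0.06 and 42 members were not called, so most of these hours are loosely set. By limma, 3 members (6.67%) were rhythmic in bodies DD, against 6.69% of the probe sets tested. They were Ag.2R.613.0_UTR_s_at, with an amplitude of 0.48 ± 0.07 peaking at hour 3.86 (adjusted p = 0.00394), Ag.X.16.0_CDS_a_at, with 0.41 ± 0.07 peaking at hour 13.9 (adjusted p = 0.00885), and Ag.3R.195.0_UTR_a_at, with 0.27 ± 0.06 peaking at hour 21.0 (adjusted p = 0.0469). The third was no longer called when any 1 time point was left out (adjusted p of 0.051 to 0.101), nor without replicate 2. Without replicate 2 the count was 1, and with arrays one by one it was 7.

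**Figure D4:**
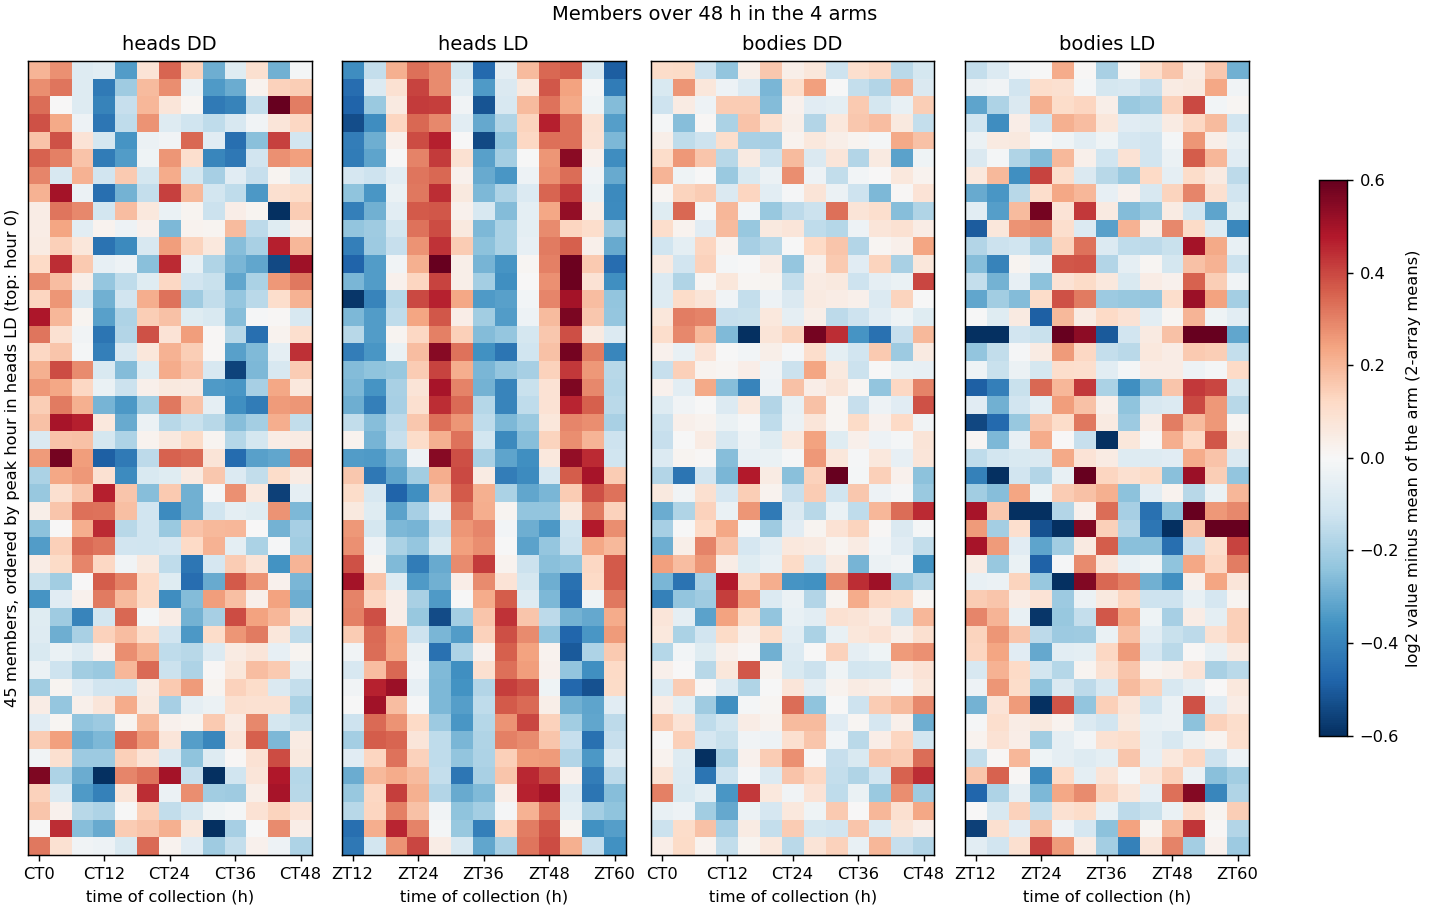
The 45 members as rows, ordered by peak hour in heads LD, in heads DD, heads LD, bodies DD and bodies LD, with the 13 collection times as columns. Colour gives the log2 value minus the arm's mean, from -0.6 (blue) to 0.6 (red), and 34 members peaked from hour 18 to 6 in heads LD, with median amplitudes of 0.23, 0.38, 0.09 and 0.18 over all members in the 4 panels from left to right.

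Across the 3 other arms, 23 members were called rhythmic in at least 1 and 22 in none, against 22.9% and 77.1% of 6075 probe sets tested in both tissues. Of the members called in heads DD, 8 of 16 (50%) were also called in bodies LD, which is 57.1% of the 14 called there. Over all probe sets tested in both tissues these shares were 34.6% and 22.1%. The rule limited strong rhythms in each of these arms, so nothing is read from these shares. Ag.X.16.0_CDS_a_at was called in heads DD and bodies DD. Its amplitude was 0.34 in heads DD, 0.37 in heads LD, 0.41 in bodies DD and 0.28 in bodies LD, with peaks at hours 15.1, 12.99, 13.9 and 11.98. These hours span 3.11 h, but the rhythm was not called in bodies LD (adjusted p = 0.183), so its hour there is loosely set. Ag.2R.613.0_UTR_s_at cycled more in bodies than in heads, with amplitudes of 0.27 in heads DD, 0.29 in heads LD, 0.48 in bodies DD and 0.66 in bodies LD, and peaks at hours 1.13, 3.35, 3.86 and 3.66. Its R2 in bodies LD was 0.613, under the limit for a strong rhythm.

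Members' mean levels in heads differed between regimes about as often as those of other probe sets. By limma with separate 24 h terms for each regime, 34 members differed between heads DD and heads LD at an adjusted p under 0.05, 23 higher and 11 lower in DD, against 73.0% of 7188 probe sets (43.5% higher and 29.5% lower). At 1.5-fold or more, 3 members were higher and 5 lower, against 12.0% and 13.3% of all. The members' median difference was 0.10, against 0.08 over all. In bulk tissue, fewer cells of a type and less RNA per cell cannot be told apart.

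Ag.3L.505.0_CDS_s_at had the largest positive difference in heads, and its time point means ran from 9.24 over a median of 9.61 to 10.14 in heads DD, against 7.39 over 7.74 to 8.33 in heads LD. The regimes did not overlap, and the level rose by 1.78 ± 0.06 on the log2 scale in DD (3.44-fold, adjusted p = 1.24e-17). Its peak hour was 20.9 in heads DD and 21.0 in heads LD, but its rhythm was not called in heads DD (adjusted p = 0.0958), where the peaks from each replicate alone fell at hours 19.5 and 22.1. Ag.2L.31.0_CDS_at ran from 13.27 over 13.47 to 13.63 in heads DD, against 11.98 over 12.38 to 12.68 in heads LD, a difference of 1.08 ± 0.04 (2.11-fold, adjusted p = 9.01e-18). Its amplitude was 0.13 in heads DD and 0.31 in heads LD.

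Ag.2R.613.0_UTR_s_at ran from 7.34 over 7.81 to 8.17 in heads DD, against 8.66 over 9.01 to 9.38 in heads LD, and fell by 1.24 ± 0.05 in DD (adjusted p = 5.68e-16). Ag.2R.335.0_CDS_at ran from 9.40 over 9.63 to 9.87 in heads DD, against 9.96 over 10.46 to 11.00 in heads LD, and fell by 0.87 ± 0.05 (adjusted p = 3.36e-13). Neither overlapped between regimes. The second of them had both a lower level and a smaller rhythm in DD, with an amplitude of 0.04 there and 0.49 in heads LD.

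Level differences between regimes had a median size of 0.62 in bodies and 0.28 in heads over the members, against 0.64 in bodies and 0.31 in heads over all probe sets. By limma, 38 members differed between bodies DD and bodies LD, 22 higher and 16 lower, against 85.7% of 7325 probe sets (47.4% higher and 38.3% lower). At 1.5-fold or more, 16 members were higher and 10 lower, against 30.1% and 22.9% of all. The members' median difference was 0.13, against 0.10 over all. Quantile normalization moved the median over all probe sets by about that much, to 0.003, and gave 21 members higher and 17 lower.

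The members with the largest differences changed several fold. Ag.3R.390.0_CDS_at ran from 10.82 over 11.25 to 11.93 in bodies DD, against 7.98 over 9.00 to 10.33 in bodies LD, and was 2.22 ± 0.15 higher in DD on the log2 scale (4.67-fold, adjusted p = 1.34e-12). Ag.2R.472.0_UTR_a_at ran from 9.52 over 9.74 to 9.97 in bodies DD, against 6.93 over 7.84 to 8.58 in bodies LD, and was 2.05 ± 0.10 higher (4.14-fold, adjusted p = 3.19e-15). Both had no overlap between regimes.

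Ag.2R.3702.1_s_at ran from 8.36 over 8.46 to 8.82 in bodies DD, against 10.79 over 11.29 to 11.48 in bodies LD, and fell by 2.76 ± 0.06 in DD (adjusted p = 7.94e-22). Ag.2L.171.2_CDS_s_at ran from 10.11 over 10.26 to 10.44 in bodies DD, against 11.94 over 12.16 to 12.25 in bodies LD, and fell by 1.87 ± 0.04 (adjusted p = 1.09e-22). These 2 were also far apart between regimes, with no overlap, and both carry the ending for probes shared by several genes.

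The level difference between regimes was then set between tissues. Of the 45 members, 28 were called in both tissues, 23 of them in the same direction and 5 in opposite directions, 6 in heads alone and 10 in bodies alone. Over 6075 probe sets tested in both tissues, 63.9% were called in both, 69.0% of these in the same direction, with 9.81% called in heads alone and 21.7% in bodies alone. The difference was larger in size in bodies in 32 members, against 68.0% of those probe sets. The interaction of tissue and regime, tested by limma on heads minus bodies at each time point, was called in 36 members, 18 higher and 18 lower, against 77.4% of 8438 probe sets (36.5% higher and 40.9% lower). Its median size was 0.36 over the members and 0.55 over all, and the share of members called was near that of all probe sets. Under quantile normalization 22 were higher and 13 lower. For Ag.2R.3702.1_s_at the interaction was 3.01 ± 0.07 (adjusted p = 3.8e-22), since its level in heads was 8.22 in DD and 7.93 in LD while it fell in bodies. For Ag.3L.2633.0_at it was 1.22 ± 0.10 (adjusted p = 1.12e-10). The lowest values were -1.81 ± 0.16 for Ag.3R.390.0_CDS_at (adjusted p = 2.76e-10) and -1.32 ± 0.10 for Ag.2R.472.0_UTR_a_at (adjusted p = 7.91e-12), both of which gained more in bodies than in heads.

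**Figure D5:**
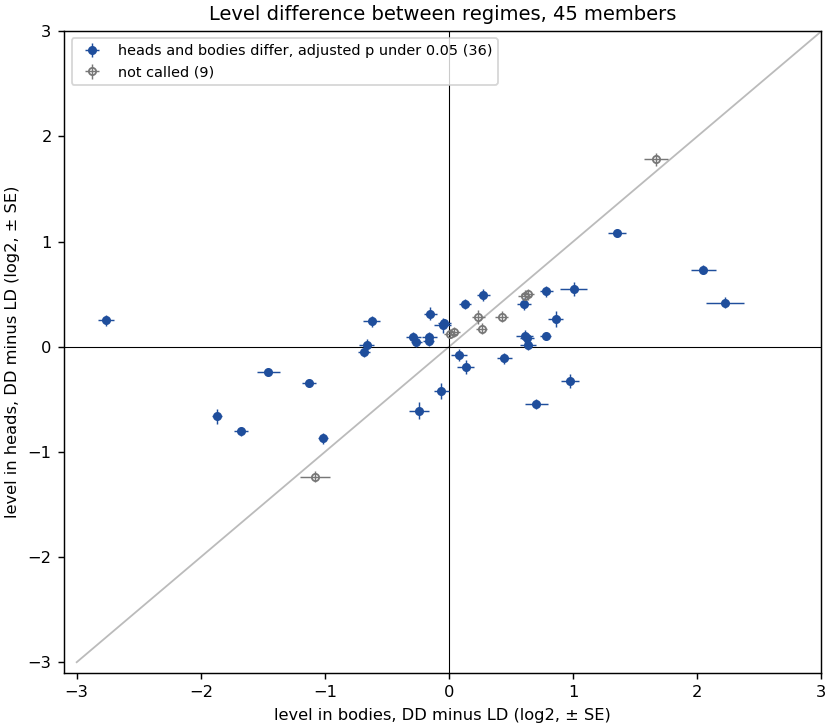
Level difference DD minus LD (log2, ± SE over time points) of the 45 members in heads (vertical) against bodies (horizontal), with the line of equal differences in grey. Filled points are the 36 members whose difference was called as unequal between tissues; in 32 members the difference was larger in size in bodies.

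The members' levels were also set between tissues. In DD, 42 members differed between heads and bodies by limma, 14 higher and 28 lower in heads, against 92.5% of 8438 probe sets (32.0% higher and 60.5% lower). At 1.5-fold or more, 8 members were higher and 14 lower, against 24.2% and 48.2% of all. The members' median heads minus bodies difference in DD was -0.35, against -0.52 over all. This balance depended on scaling, since quantile normalization, which moved the median over all to 0.03, gave 31 higher and 10 lower. In LD, where the rule capped the difference, the median was -0.40, with 18 members higher and 27 lower in heads, and 40 members kept in DD the sign they had in LD.

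Ag.3R.321.0_CDS_a_at was the member most enriched in heads. It ran from 11.94 over 12.56 to 12.96 in heads DD, against 8.83 over 9.05 to 9.22 in bodies DD, a difference of 3.46 ± 0.08 (11.0-fold, adjusted p = 2.79e-15). Its rhythm, with an amplitude of 0.24 in heads DD and 0.40 in heads LD, was 0.05 in bodies DD and 0.07 in bodies LD. Ag.3R.390.0_CDS_at was 1.75 ± 0.10 higher in heads DD than in bodies DD (adjusted p = 1.16e-10). At the other end Ag.2R.613.0_UTR_s_at was lower in heads DD by -3.20 ± 0.06 (adjusted p = 1.94e-16) and Ag.3L.881.0_CDS_at by -1.95 ± 0.09 (adjusted p = 1.24e-11).

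By their IDs the members were spread over the genome, with 11 on arm 2L, 11 on 2R, 7 on 3L, 12 on 3R, 3 on X and 1 unplaced. The IDs of 29 members name coding sequence (64.4%, against 72.7% of all with a mean of at least 4), 11 name an untranslated region (24.4%, against 9.84%) and 5 name neither. Among bright probe sets with a mean of 8 or more, untranslated regions made up 19.6%. The ending for transcripts of 1 gene was on 16 members and that for several genes on 5.

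The 45 members came from 44 clusters. Ag.3L.150.0_UTR_a_at and Ag.3L.150.1_CDS_a_at shared one, named after it was seen that they did, and peaked at hours 2.74 and 2.61 in heads LD with amplitudes of 0.39 and 0.48. In heads DD they peaked at hours 0.30 and 3.15, with amplitudes of 0.23 and 0.30. For 17 members another probe set of the same cluster passed the filter in heads. The 17 pairs whose other probe set was no member had peaks in heads LD a median of 0.403 h apart, and 16 of 17 pairs were within 2 h. The other probe sets of these pairs had amplitudes of 0.09 to 0.49, with a median of 0.34, and R2 of 0.272 to 0.887, with a median of 0.812. The member of each pair was chosen by its rhythm and the other probe set was not, but both read the same RNA on the same arrays. The pairs are therefore not independent measurements, and the share among pairs of other clusters is not given here.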

How the data were processed

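The authors deposited log2 values, 1 for each probe set on each array, from GCRMA, which corrects background, normalizes arrays against each other and summarises probes, per the submitters' processing notes. The GCRMA version and the set of arrays normalized at once are not given here. Values ran from 0.69 to 15.63, and the number of arrays limits the precision. The table holds 22761 probe sets, of which those named for Anopheles were used.

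The 2 arrays of a time point were averaged. Members came from least squares 24 h cosine fits. Tests used limma 3.58.1 under R 4.3.3 (functions lmFit and eBayes, Benjamini-Hochberg adjustment over all probe sets tested, threshold 0.05). A probe set was tested when its mean in the tissue exceeded the 95th percentile of the Plasmodium falciparum probe sets of the array (3.75 in heads, 3.78 in bodies). The level fits held 24 h terms per regime, heads and bodies were paired by time point, and the fits were checked on simulated data. Alternatives were no filter, quantile normalization, single replicates, single arrays, ranks and each time point left out.

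Members, lists and tests were chosen with earlier results of these data known. Named members were, in heads LD, the 2 of highest R2 in each 12 h window of peak hours, and for other rhythms the same by F among called members. For levels they were the 2 highest and 2 lowest differences among called members with the same sign in both replicates. Lists of clock, ribosomal, proteasome, proton pump and chaperone genes and tissue markers were not used, since the files pair no probe set with a gene.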

Additional observations from a re-analysis of the deposited data

Results flagged for a closer look

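The difference in level between DD and LD was not the same in heads and bodies, by the test of that difference, in 36 of 45 members. Among them Ag.2R.3702.1_s_at had a heads difference that exceeded the bodies difference by 3.01 on the log2 scale, and Ag.3L.2633.0_at one that exceeded it by 1.22. In Ag.3R.390.0_CDS_at the heads difference minus the bodies difference was -1.81, and in Ag.2R.472.0_UTR_a_at it was -1.32. The share over all probe sets was 77.4%. The 3′ minus 5′ difference of the Gapdh control also changed by unlike amounts, averaging 4.40 in heads DD and 2.59 in heads LD, against 4.34 in bodies DD and 3.04 in bodies LD, and its part in these results was not tested.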

How the results depend on the processing

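No level difference of a named member changed sign under any alternative that was run. For single replicates this was fixed in advance, since members were named only with the same sign in both. Amplitudes have no sign, so this check does not apply to the rhythms. Under quantile normalization 3 medians over the members did change sign. Heads DD minus bodies DD turned to 0.40, against -0.35 as reported. The interaction turned to 0.005, against -0.09, and the second minus first day in heads DD to 0.01, against -0.05. Of the counts of members recomputed, 122 stayed within 1.5 times the reported count and 19 did not. The list itself also depended on the processing. Without 1 replicate the rule found 24 to 36 probe sets, 20 of them shared with the 45 in each case. An R2 minimum of 0.8 gave 259 and one of 0.95 gave 4, and a straight line added over the 48 h gave 70, 43 of them shared. Quantile normalization gave 52, of which 33 were shared, so 12 members were lost. Rhythmic members in heads DD numbered 7 to 8 without 1 replicate and 0 on ranks. In bodies LD they numbered 8 to 12 without 1 replicate and 9 without ZT16. In bodies DD they numbered 1 to 3 without 1 replicate and 0 on ranks. Quantile normalization gave 31 members higher and 10 lower in heads DD than bodies DD. Ranks called 0 of all 7188 probe sets in heads, and the cause was not tested. For named members and medians, 318 values kept their call or stayed within the spread, 26 fell short of the threshold in the same direction and 4 medians moved.

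Replicate numbers are shared by all time points, and the labels do not say what they stand for. The correlation of replicate differences between time points ran from 0.278 to 0.563 in heads LD, where all 78 pairs exceeded 0.1, and had medians of 0.0848 in heads DD, 0.0465 in bodies DD and 0.171 in bodies LD. With arrays one by one and the replicate as a block, 31 members were rhythmic in heads DD, 29 in bodies LD and 7 in bodies DD, and without the block 31, 28 and 7. Shares over all probe sets under these fits are not given here, so nothing is read from these counts. The labels do not show that the arrays of a time point are independent, so those counts may rest on technical repeats.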
